A study of Saccharomyces cerevisiae with 119 samples.

Results

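The response of budding yeast to mild salt stress was compared between YPS606 *skn7*∆ and YPS606 wild type (WT). Members were chosen by genotype and treatment and not by any measured value: 16 of the 119 RNA-seq libraries of the series, 4 each of *skn7*∆ with NaCl, *skn7*∆ unstressed, WT with NaCl and WT unstressed. YPS606 is a wild oak isolate of *Saccharomyces cerevisiae* used here as a homozygous diploid, and in *skn7*∆ the *SKN7* gene was replaced with the KanMX drug marker and the deletion was checked by PCR. Both genotypes were grown to mid-exponential phase in rich YPD medium, a sample was taken as unstressed, and culture was then added to salt medium to a final 0.4 M NaCl for 45 min. The salt response therefore also holds the dilution into that medium, which both genotypes share, and *skn7*∆ was represented by 1 strain. Within bulk RNA, fewer cells expressing a gene and less of its mRNA per cell cannot be told apart. Levels are given as CPM, the counts of a gene scaled to the TMM-adjusted total of its library, and the interaction of a gene is its log2 salt response in *skn7*∆ minus that in WT, so that a negative value means a smaller rise or a larger fall in *skn7*∆.

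Skn7 is a nuclear transcription factor that joins a DNA-binding domain like that of the heat shock factor to a receiver domain. The receiver domain takes phosphate from the osmosensor Sln1 through Ypd1, the same relay that controls the Hog1 kinase of the salt response. Skn7 is best known for activating peroxide defence genes together with Yap1, and for genes of the cell wall and the cell cycle, while Msn2 and Msn4 activate many genes of the general stress response through the stress response element AGGGG.

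Each of the 16 libraries held 10159326 to 16478315 counts and 5964 to 6241 detected genes, and no pair of replicates was as alike as counting noise alone would make it. *SKN7* (YHR206W) had 2, 1, 0 and 3 counts in *skn7*∆ under NaCl and 3, 1, 2 and 3 counts in unstressed *skn7*∆, against 1207, 1567, 1435 and 1491 counts in WT under NaCl and 1642, 1808, 1278 and 1883 counts in unstressed WT. The deleted gene was thus at the floor in all 8 *skn7*∆ libraries and abundant in all 8 WT libraries. The first principal component, with 78.9% of the variance, ran with salt and placed the NaCl libraries of *skn7*∆ at 30.2 to 34.0 and those of WT at 52.5 to 62.9, while the unstressed libraries lay at −45.8 to −43.1 in *skn7*∆ and −49.2 to −44.9 in WT. Replicate 2 of *skn7*∆ under NaCl stood apart on the second component, at 12.5 against 19.1 to 23.8 in the other replicates of its group. As markers of cells that a growing diploid culture should not hold, 11 of 20 haploid and mating-type genes and 12 of 16 meiosis and sporulation genes passed the filter on low counts. In the interaction 1 of the 11 was lower (*FAR1*, 9.09%) and 2 of the 12 (*IME2* and *NDT80*, 16.7%), against 8.18% of all genes. Salt responses of these 3 were 0.46, 1.00 and 0.30 in *skn7*∆ and 1.90, 2.60 and 2.69 in WT. An interaction compares salt responses and does not show whether such cells were present. The call of *FAR1* was lost without replicate 1, 3 or 4 (adjusted p = 0.0705, 0.0254 and 0.0924) and under 5 of 9 other settings. That of *NDT80* was lost without the same replicates (adjusted p = 0.0536, 0.0732 and 0.0199).

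Promoter windows are shown for the genes on which the account turns: *STL1*, *TSL1* and *CTT1* for induction that was smaller in *skn7*∆, and *GPX2* and *TSA1* for levels that were already low without stress. Each runs from 250 bases before the start codon to 50 bases from it, 5′ to 3′ on the gene's strand, in the RefSeq S288c genome (R64), which is not the YPS606 sequence. Capitals mark matches on either strand to GGCNGGC (Skn7), TTANTAA (Yap1) and AGGGG (Msn2 and Msn4). They lie at chrIV:1507755-1508054 (+) for *STL1*, chrXIII:70374-70673 (+) for *TSL1*, chrVII:654384-654683 (+) for *CTT1*, chrII:707278-707577 (+) for *GPX2* and chrXIII:219888-220187 (+) for *TSA1*.
STL1: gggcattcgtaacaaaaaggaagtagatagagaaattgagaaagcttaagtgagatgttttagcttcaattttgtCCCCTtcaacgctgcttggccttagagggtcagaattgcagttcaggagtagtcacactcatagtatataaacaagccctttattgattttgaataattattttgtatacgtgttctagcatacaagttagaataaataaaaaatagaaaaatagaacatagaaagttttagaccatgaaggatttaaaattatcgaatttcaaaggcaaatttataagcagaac
TSL1: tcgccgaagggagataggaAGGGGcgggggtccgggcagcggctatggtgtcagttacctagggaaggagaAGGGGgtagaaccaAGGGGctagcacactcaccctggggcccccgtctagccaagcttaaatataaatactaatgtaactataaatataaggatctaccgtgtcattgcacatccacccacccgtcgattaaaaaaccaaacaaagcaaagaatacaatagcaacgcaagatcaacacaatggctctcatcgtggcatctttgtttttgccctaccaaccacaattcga
CTT1: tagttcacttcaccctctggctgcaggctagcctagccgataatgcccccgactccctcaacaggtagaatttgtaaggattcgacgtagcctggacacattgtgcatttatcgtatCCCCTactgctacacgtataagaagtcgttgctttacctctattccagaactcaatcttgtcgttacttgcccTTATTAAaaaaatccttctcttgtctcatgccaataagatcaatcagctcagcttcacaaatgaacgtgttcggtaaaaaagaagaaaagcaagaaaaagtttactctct
GPX2: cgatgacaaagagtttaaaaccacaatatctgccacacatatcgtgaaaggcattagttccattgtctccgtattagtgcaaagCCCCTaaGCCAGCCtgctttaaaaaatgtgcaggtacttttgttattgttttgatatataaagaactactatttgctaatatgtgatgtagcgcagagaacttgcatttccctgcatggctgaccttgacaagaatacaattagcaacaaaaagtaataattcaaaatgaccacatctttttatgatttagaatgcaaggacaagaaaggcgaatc
TSA1: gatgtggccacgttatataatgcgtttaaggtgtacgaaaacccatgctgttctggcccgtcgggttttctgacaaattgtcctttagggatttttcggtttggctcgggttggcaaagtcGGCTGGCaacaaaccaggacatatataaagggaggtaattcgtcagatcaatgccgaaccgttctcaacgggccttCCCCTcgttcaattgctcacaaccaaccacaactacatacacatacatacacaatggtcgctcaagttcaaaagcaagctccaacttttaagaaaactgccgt

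*STL1* held a single AGGGG, *TSL1* held 3, *CTT1* held 1 beside a TTANTAA, and *GPX2* and *TSA1* each held 1 AGGGG and 1 GGCNGGC. Among 5541 promoters of the same length, AGGGG was present in 21.8%, GGCNGGC in 3.36% and TTANTAA in 18.5%. A match is a description of these letters only.

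The deletion made the salt response smaller in both directions. Of 5748 genes tested by the edgeR quasi-likelihood test (Benjamini-Hochberg adjusted p, called at 0.01 and 1.5-fold), 470 had a lower interaction (8.18%) and 247 a higher one (4.3%). Counts of list members called in the interaction stand against these shares. Without TMM scaling the split was 483 lower and 143 higher, and without replicate 4 it was 327 lower and 139 higher. In *skn7*∆ salt induced 1135 genes (19.7%) and repressed 1351 (23.5%), against 1537 induced (26.7%) and 1490 repressed (25.9%) in WT. Without TMM scaling these counts were 1409 induced and 1096 repressed in *skn7*∆, against 1850 and 1171 in WT, and the median of all genes then moved to 0.127 in *skn7*∆ and 0.173 in WT on the log2 scale. Responses are therefore relative to the median gene.

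The 717 called genes (12.5%) fell mainly into 2 classes. Defective induction, a WT induction with a lower interaction, held 395 genes (6.87%), and defective repression, a WT repression with a higher interaction, held 211 (3.67%). Loss was partial: 257 of the 395 were still called induced in *skn7*∆ and 143 of the 211 were still called repressed. The classes describe responses and not levels. Under NaCl 280 of the 395 were lower in *skn7*∆ than in WT and 5 higher, against 9.15% and 3.93% of all genes. Without stress 55 of the 395 were already higher in *skn7*∆ and 5 lower, against 2.71% and 0.765% of all genes. Of the 211, 93 were higher in *skn7*∆ under NaCl and 2 lower. Only 3 genes had amplified induction (0.0522%) and 9 amplified repression (0.157%), while 11 were induced (0.191%) and 34 repressed (0.592%) in *skn7*∆ with no call in WT, and 54 fitted none of these classes (0.939%). The smaller classes moved most with a single replicate: repression gained in *skn7*∆ held 16 genes without replicate 3 and 55 without replicate 2, amplified repression held 19 without replicate 2, and defective repression held 119 without replicate 4. Without replicate 2 of *skn7*∆ under NaCl alone, the library that stood apart, repression gained held 64 genes and amplified repression 17. The replicate-wise responses of *skn7*∆ lay all below those of WT for 953 genes (16.6%) and all above for 738 (12.8%).

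Genes induced in WT had a median log2 response of 0.89 in *skn7*∆ and 1.30 in WT. Those called repressed had medians of −0.90 in *skn7*∆ and −1.14 in WT. Because WT libraries chose these sets, the same was read for the 1419 induced and 1550 repressed genes of YPS606 in the separate strain experiment of the series, whose libraries the interaction does not use. There the induced set had replicate medians of 0.866, 0.839, 0.953 and 0.931 in *skn7*∆, against 1.22, 1.40, 1.30 and 1.35 in WT, with no overlap between the genotypes. Of its members 383 were lower and 2 higher in the interaction, and of the repressed set 214 were higher and 11 lower. Loss was most frequent among strongly induced genes, as a description, since WT libraries set both: 139 of 249 genes induced at least 8-fold in WT had a lower interaction (55.82%), against 169 of 1083 induced under 4-fold (15.6%).

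**Figure D1:**
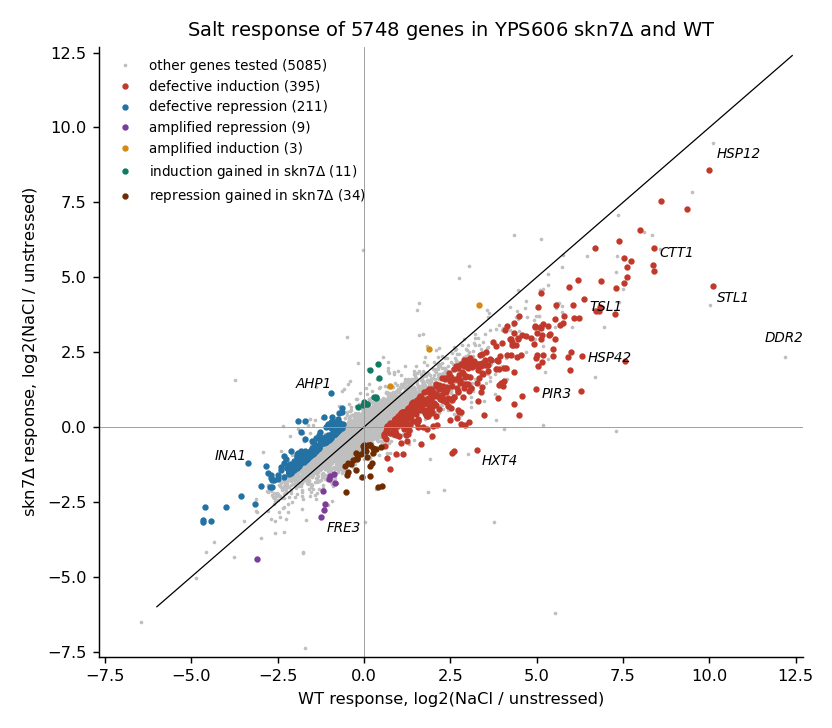
Log2 salt response (NaCl over unstressed) of each of the 5748 genes in *skn7*∆ (vertical axis) against WT (horizontal axis), with the called classes in colour and equal responses on the diagonal line. The 395 genes of defective induction lie below the diagonal on the right, the 211 genes of defective repression lie above it on the left, and *STL1*, *HSP42*, *HXT4* and *AHP1* are among the labelled genes far from it.

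Genes of the osmotic response had the lowest median interaction of the 32 lists by the fitted value, −1.58, against −0.02 over all genes tested, although the trehalose list was lower in replicate 2 (−1.33, against −1.26 for the osmotic list) and in replicate 3 (−1.40, against −1.32). Of 20 osmotic stress genes 12 were lower in the interaction and none was higher, and the median response was 4.51 in *skn7*∆ and 6.17 in WT, against 5.94 for YPS606 in the strain experiment. Under NaCl 17 of the 20 were lower in *skn7*∆ than in WT (9.15% of all genes were, and 3.93% were higher). The top of the list was *STL1* (YDR536W), the plasma membrane symporter that takes up glycerol with protons. *STL1* had 19.2, 27.5, 20.0 and 16.1 CPM in *skn7*∆ under NaCl and 0.384 to 1.27 CPM in unstressed *skn7*∆, against 475, 787, 786 and 914 CPM in WT under NaCl and 0.372 to 0.937 CPM in unstressed WT. The unstressed groups overlapped, and the salt-treated ones were far apart. The salt response was 4.72 in *skn7*∆ and 10.11 in WT, an interaction of −5.39 ± 0.79 (SE, adjusted p = 1.04e-06), and under NaCl the level was 35-fold lower in *skn7*∆.

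*DDR2*, a stress gene of unknown function, had 0, 0, 2 and 0 counts in *skn7*∆ under NaCl, against 364, 776, 709 and 855 counts in WT under NaCl, and 0 counts in all 8 unstressed libraries. It was at least 186-fold lower in *skn7*∆ under NaCl, with 3 counts per library as the floor, and the quasi-likelihood test gave no usable interaction for it (adjusted p = 1, against 5.82e-07 in DESeq2). Under 5% ethanol for 30 min *DDR2* had 8, 14, 29 and 44 counts in *skn7*∆ and 110, 94, 101 and 73 counts in WT. In the other deletions under NaCl it had 2, 3, 1 and 1 counts in *msn2*∆ *msn4*∆ and 230, 262, 177 and 224 counts in *yap1*∆. The other members called lower were *ALD2* and *ALD3* (aldehyde dehydrogenases), *HOR7*, *SPI1*, *RTN2*, *PAI3*, *PHM7*, *RTC3*, *GRE3* (aldose reductase), *PRR2* and *RGI1*. Of these *ALD3* was not called without replicate 1, 3 or 4 (adjusted p = 0.0228, 0.012 and 0.13), *PAI3* without replicate 2, 3 or 4 (0.029, 0.0262 and 0.0281) and *PHM7* without replicate 4 (0.0247). *RTN2*, a reticulon of the endoplasmic reticulum, reached 82.0, 108, 71.7 and 58.0 CPM in *skn7*∆ under NaCl and 424, 617, 575 and 747 CPM in WT under NaCl (interaction −2.59 ± 0.35, adjusted p = 1.91e-07). The small membrane-binding heat shock protein gene *HSP12*, one of the 8 members not called and named after its values were seen, had responses of 9.48 in *skn7*∆ and 10.11 in WT (adjusted p = 0.261).

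Glycerol is the osmolyte that balances salt outside the cell, and the genes of its synthesis were read beside that of its uptake. *GPD1*, the glycerol-3-phosphate dehydrogenase that sets the rate of synthesis, had 492, 581, 574 and 502 CPM in *skn7*∆ under NaCl and 34.2, 33.8, 35.7 and 41.6 CPM in unstressed *skn7*∆. In WT it had 1530, 2345, 2424 and 2812 CPM under NaCl and 103, 89.9, 125 and 103 CPM unstressed. Both treatments separated the genotypes, by −1.54 unstressed (adjusted p = 2.74e-10) and −2.08 under NaCl (adjusted p = 5.23e-15), while the responses were 3.89 in *skn7*∆ and 4.43 in WT (interaction −0.54 ± 0.21, adjusted p = 0.0503, not called). This interaction was called without TMM scaling and without WT replicate 1 under NaCl. *GPP2*, the glycerol-3-phosphatase of the next step, had responses of 7.08 in *skn7*∆ and 7.34 in WT (adjusted p = 0.303).

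Of the 15 glycerol genes 4 were lower in the interaction (26.7%, against 8.18% of all genes) and none was higher. They were *STL1*, *GCY1* (glycerol dehydrogenase, −0.95), *GUT2* (the mitochondrial dehydrogenase of glycerol use, −1.43) and *ASK10*. *ASK10*, a regulator of the glycerol channel Fps1, had an interaction of −1.52 ± 0.16 (adjusted p = 3.82e-10). Of 25 genes of the Hog1 pathway and its phosphorelay 3 were lower (*SSK22*, *PTP2* and *SMP1*) and 1 higher (*PTP3*), shares of 12% and 4% against 8.18% and 4.3% of all genes. *SSK22* was not called without replicate 2 or 3 (adjusted p = 0.0102 and 0.015). *PTP2*, a phosphatase that acts on Hog1, had a response of −0.09 in *skn7*∆ and 1.30 in WT, and *SMP1*, a transcription factor downstream of Hog1, one of 0.02 in *skn7*∆ and 1.72 in WT. The mRNA of the regulators *HOG1*, *SLN1*, *YPD1*, *HOT1*, *SKO1*, *MSN2* and *MSN4*, named after their values were seen, had interactions between −0.10 and 0.03, none of them called. In level *HOG1* was lower in *skn7*∆ by −0.37 unstressed (adjusted p = 4.78e-04) and −0.36 under NaCl (1.26e-04). *MSN2* was lower by −0.29 unstressed (0.0251) and −0.33 under NaCl (2.59e-03). These differences were under 1.5-fold, and the other regulators had no adjusted p below 0.01 in level. Of 28 stress transcription factors 6 were lower (21.4%) and 1 higher (3.57%). Among them *YAP1*, also named after its values were seen, had 85.9, 87.1, 76.3 and 72.5 CPM in *skn7*∆ under NaCl and 113, 128, 115 and 122 CPM in WT under NaCl (interaction −0.64, adjusted p = 3.41e-04). *ENA1*, a sodium export ATPase with near-identical copies between which reads may be split, had 78.3, 84.0, 77.6 and 79.3 CPM in *skn7*∆ under NaCl, against 424, 709, 668 and 745 CPM in WT under NaCl (interaction −2.26 ± 0.29, adjusted p = 5.71e-08). Of 18 genes for sodium, potassium and proton transport 4 were lower (*ENA1*, *ENA5*, *KHA1* and *HAL5*) and 1 was higher (*PMA1*, the plasma membrane proton pump). These were 22.2% and 5.56%, against 8.18% and 4.3% of all genes. *PMA1* was not called without replicate 1, 3 or 4 (adjusted p = 0.0104, 0.0574 and 0.0479).

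Storage carbohydrates showed smaller induction throughout the trehalose pathway. All 7 trehalose genes were lower in the interaction, with a median response of 2.18 in *skn7*∆ and 3.38 in WT, and none of them differed between the genotypes without stress. *TSL1*, a regulatory subunit of trehalose synthase, had 388, 323, 334 and 366 CPM in *skn7*∆ under NaCl, against 1062, 1443, 1502 and 2005 CPM in WT under NaCl, and 14.6 to 23.6 CPM in the 8 unstressed libraries (interaction −2.10 ± 0.23, adjusted p = 1.98e-09). *TPS1*, the synthase, had 789, 938, 784 and 815 CPM in *skn7*∆ under NaCl and 2083, 2548, 2479 and 2875 CPM in WT under NaCl (interaction −1.58 ± 0.16, adjusted p = 1.72e-10). The salt-treated groups were separate for both genes. The phosphatase gene *TPS2* (−1.27) and the neutral trehalase gene *NTH1* (−1.33), which degrades the sugar, moved the same way.

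Of 16 glycogen genes 8 were lower and none higher, with a median response of 1.24 in *skn7*∆ and 2.61 in WT. They held both synthesis (*GSY1*, *GSY2*, *GLG1* and *GLC3*), breakdown (*GPH1*, not called without replicate 4, adjusted p = 0.0124, and *GDB1*) and the supply of the glucose donor (*PGM2* and *UGP1*). *GSY2*, the main glycogen synthase, had 106, 118, 105 and 126 CPM in *skn7*∆ under NaCl and 271, 342, 346 and 449 CPM in WT under NaCl (interaction −2.07), without overlap. Upstream of these, *HXT5*, a hexose transporter of slow-growing cells, had 151, 187, 175 and 136 CPM in *skn7*∆ under NaCl and 706, 1123, 1176 and 1089 CPM in WT under NaCl (interaction −2.84 ± 0.23, adjusted p = 5.78e-13). Of 25 genes of glycolysis and fermentation 6 were lower, all of them induced in WT: the hexokinase *HXK1* (−1.90), the glucokinase *GLK1* (−2.18), its paralog *EMI2*, the 6-phosphofructo-2-kinase *PFK26*, the pyruvate kinase *PYK2* and the pyruvate decarboxylase *PDC5*. *PYK2* was not called without replicate 4 (adjusted p = 0.0244).

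*HXT4*, another hexose transporter, turned from induced to repressed. It had 89.1, 63.0, 111 and 156 CPM in *skn7*∆ under NaCl and 155, 147, 159 and 234 CPM in unstressed *skn7*∆, against 149, 191, 244 and 246 CPM in WT under NaCl and 22.1, 20.4, 26.2 and 15.3 CPM in unstressed WT. Its interaction of −4.03 ± 0.37 (adjusted p = 1.71e-11) was thus mostly a difference without stress, where *skn7*∆ was higher by 3.01, while under NaCl *skn7*∆ was lower by a difference of −1.01 and the lowest WT library lay below the highest *skn7*∆ library.

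**Figure D2:**
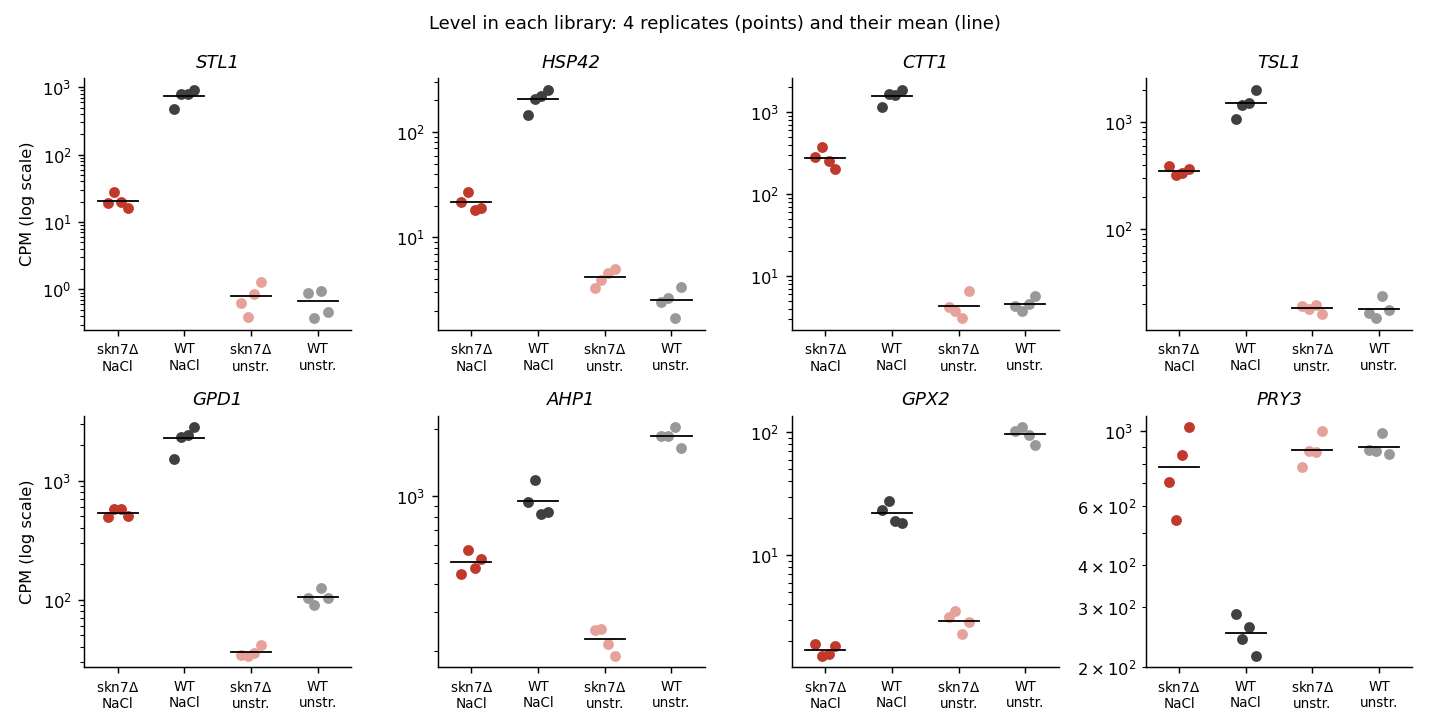
CPM on a log axis of 8 genes in each library of *skn7*∆ NaCl, WT NaCl, *skn7*∆ unstressed (unstr.) and WT unstressed, with 4 replicates as points and their mean as a line. *STL1*, *HSP42*, *CTT1* and *TSL1* separate the genotypes under NaCl, *GPD1*, *AHP1* and *GPX2* separate them in both treatments, and *PRY3* is lower only in WT under NaCl.

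Protein quality genes had lower interactions in several lists. Of 39 heat shock proteins and chaperones 14 were lower (35.9%, against 8.18% of all genes) and none was higher. Salt induced 9 of the 39 and repressed 20 in *skn7*∆, against 13 induced and 15 repressed in WT. *HSP42*, a small heat shock protein that gathers misfolded proteins, had 21.9, 27.2, 18.0 and 19.2 CPM in *skn7*∆ under NaCl and 3.33 to 5.01 CPM in unstressed *skn7*∆, against 146, 207, 219 and 252 CPM in WT under NaCl and 1.70 to 3.42 CPM in unstressed WT (interaction −3.96 ± 0.35, adjusted p = 7.98e-12). *HSP104*, the disaggregase, had 103, 123, 111 and 97.6 CPM in *skn7*∆ under NaCl and 277, 364, 432 and 570 CPM in WT under NaCl (interaction −2.23 ± 0.24, adjusted p = 7.27e-10). The salt-treated groups did not overlap for either gene. *BTN2*, which sorts misfolded proteins, responded by 0.17 in *skn7*∆ and 3.03 in WT.

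Proteasome genes were called induced in WT for 21 of 46 members and in *skn7*∆ for 1, with median responses of 0.08 in *skn7*∆ and 0.56 in WT, and 0.55 for YPS606 in the strain experiment. In the interaction 19 were lower, drawn from the catalytic core (among them *PRE1* at −0.80), the regulatory particle and the assembly factor *UMP1* (−0.80). The calls of *PRE1* and *UMP1* were lost without replicate 3 (adjusted p = 0.0129 and 0.0122). Under NaCl 7 of the 46 were lower in *skn7*∆ than in WT, against 9.15% of all genes. *ECM29*, which tethers core and regulatory particle, changed most and had 133, 129, 152 and 156 CPM in *skn7*∆ under NaCl, against 205, 241, 271 and 316 CPM in WT under NaCl (interaction −1.36 ± 0.14, adjusted p = 5.97e-10). Of 30 autophagy genes 10 were lower (33.3%, against 8.18% of all genes) and none was higher. *ATG8*, the ubiquitin-like protein of the autophagosome membrane, had 1.90, 2.56, 1.91 and 1.92 CPM in *skn7*∆ under NaCl and 6.12, 6.86, 5.10 and 5.26 CPM in WT under NaCl (interaction −2.84 ± 0.45, adjusted p = 3.43e-06). Its response was 0.08 in *skn7*∆ and 2.92 in WT. The interaction of *ATG8* thus combined a higher unstressed level in *skn7*∆ with the lower level under NaCl.

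Peroxide defence showed 2 opposite patterns. *CTT1* (YGR088W), cytosolic catalase T, had 282, 375, 250 and 202 CPM in *skn7*∆ under NaCl and 4.16, 3.76, 3.07 and 6.58 CPM in unstressed *skn7*∆, against 1161, 1663, 1601 and 1853 CPM in WT under NaCl and 4.38, 3.80, 4.60 and 5.76 CPM in unstressed WT. The unstressed groups overlapped, and under NaCl *skn7*∆ was 5.67-fold lower, so that induction was smaller and not absent (responses of 5.97 in *skn7*∆ and 8.39 in WT, interaction −2.42 ± 0.30, adjusted p = 2.64e-08). Replicate 4 gave the largest loss for *CTT1*, −3.38 against −2.14 to −1.97 in the other replicates. The glutaredoxins *GRX1* (−0.80, not called without replicate 4, adjusted p = 0.068) and *GRX2* (−0.81) were also lower, while the peroxisomal catalase gene *CTA1* had an interaction of −0.76 and was not called (adjusted p = 0.0121).

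*AHP1*, *TSA1*, *PRX1* and *GPX2*, which encode peroxiredoxins and a glutathione peroxidase, had higher interactions together with low unstressed levels in *skn7*∆, and the call of *PRX1* was lost without replicate 1, 2 or 3 (adjusted p = 0.0203, 0.0171 and 0.0123). *AHP1* had 447, 573, 472 and 522 CPM in *skn7*∆ under NaCl and 249, 254, 215 and 191 CPM in unstressed *skn7*∆, against 938, 1180, 829 and 844 CPM in WT under NaCl and 1863, 1856, 2033 and 1642 CPM in unstressed WT. Salt raised *AHP1* in *skn7*∆ (1.15) and lowered it in WT (−0.97), an interaction of 2.12 ± 0.17 (adjusted p = 3.65e-13), and *skn7*∆ was 8.16-fold lower without stress and still lower under NaCl by a difference of −0.91. *GPX2* had 1.90, 1.53, 1.57 and 1.82 CPM in *skn7*∆ under NaCl and 3.12, 3.53, 2.28 and 2.84 CPM in unstressed *skn7*∆, against 23.5, 27.6, 18.9 and 18.4 CPM in WT under NaCl and 102, 110, 94.5 and 78.9 CPM in unstressed WT. It was 32.6-fold lower in *skn7*∆ without stress and 13.0-fold lower under NaCl, and its level fell with salt in both genotypes. *TSA1* had 853, 941, 1076 and 1076 CPM in *skn7*∆ under NaCl and 527 to 600.1 CPM in unstressed *skn7*∆, against 1865 to 2122 CPM in WT under NaCl and 1831 to 2264 CPM in unstressed WT (interaction 0.83 ± 0.15, adjusted p = 5.53e-05). No library of *skn7*∆ reached the WT range of its treatment for these 3 genes.

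Of the 18 catalase and peroxidase genes, 3 had lower interactions (16.7%, against 8.18% of all genes) and 4 had higher ones (22.2%, against 4.3%). In level, 9 of the 18 were lower in *skn7*∆ under NaCl, and 4 were lower without stress. Over all genes, 526 were lower and 226 higher in *skn7*∆ under NaCl, and 44 were lower (0.765%) and 156 higher (2.71%) without stress. GGCNGGC was present in 4 of the 18 promoters (22.2%): those of *GPX2*, *TSA1*, *CCP1* and *GRX2*. It was present in 9.09% of the promoters of genes lower in unstressed *skn7*∆ (4 of 44) and in 2.83% of those of defective induction (11 of 389). AGGGG was present in 45.2% of the promoters of defective induction (176 of 389) and in 31.7% of those of WT-induced genes outside that class (338 of 1067).

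**Figure D3:**
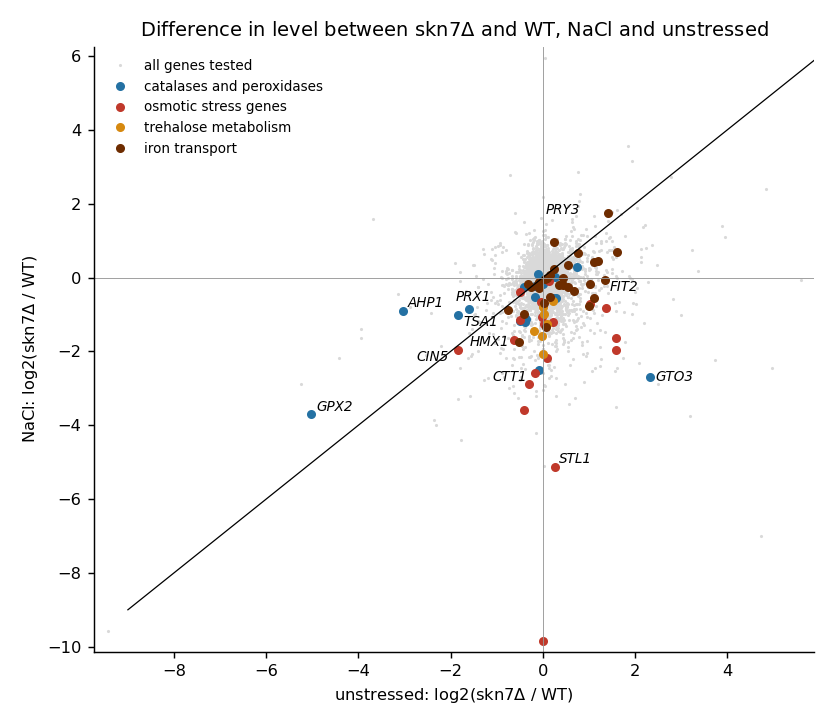
Log2 difference in level between *skn7*∆ and WT under NaCl (vertical axis) against the same difference without stress (horizontal axis), for all genes tested and 4 lists in colour, with equal differences on the diagonal line. *GPX2*, *AHP1*, *TSA1* and *PRX1* lie far to the left, low in *skn7*∆ in both treatments, while *STL1*, *CTT1* and the trehalose genes lie below 0 on the vertical axis only, and *PRY3* lies above it.

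The cell wall lists held losses and gains side by side. In the cell wall integrity pathway, the kinase cascade that repairs wall damage, 11 of 32 genes were lower and 1 higher (*LRG1*). These were 34.4% and 3.12%, against 8.18% and 4.3% of all genes. *SLT2*, its MAP kinase and a gene named after its values were seen, had 85.6, 114, 92.4 and 87.3 CPM in *skn7*∆ under NaCl, against 226, 223, 216 and 223 CPM in WT under NaCl (interaction −1.56 ± 0.12, adjusted p = 1.74e-13). *KDX1*, a paralog of *SLT2*, had 10.3, 13.1, 10.1 and 8.68 CPM in *skn7*∆ under NaCl and 18.0, 17.7, 19.6 and 18.2 CPM in unstressed *skn7*∆, against 30.3, 24.7, 23.9 and 20.0 CPM in WT under NaCl and 4.82, 4.02, 4.51 and 2.88 CPM in unstressed WT. Salt lowered *KDX1* in *skn7*∆ (−0.80) and raised it in WT (2.61), and *PRM5*, another output gene of the pathway, was higher in *skn7*∆ both without stress (by 3.88) and under NaCl (by 1.39). The interaction of *KDX1* (−3.41) thus combined a higher unstressed level in *skn7*∆ (by 2.19) with a lower level under NaCl (by a difference of −1.22), while that of *PRM5* (−2.49) lay wholly in the higher unstressed level.

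Of 36 wall mannoproteins and related proteins 11 were lower (30.6%, against 8.18% of all genes) and 3 higher (8.33%, against 4.3%). *PIR3*, a covalently linked wall protein, had 4.91, 5.31, 8.92 and 8.38 CPM in *skn7*∆ under NaCl, against 37.2, 43.4, 53.2 and 58.6 CPM in WT under NaCl (interaction −3.72 ± 0.42, adjusted p = 3.03e-09). *CWP1*, an abundant mannoprotein, had 1926, 1921, 2225 and 2332 CPM in *skn7*∆ under NaCl and 5173, 5574, 6380 and 5424 CPM in WT under NaCl (interaction −2.45). The NaCl groups did not overlap for either gene. Responses were 1.26 in *skn7*∆ and 4.98 in WT for *PIR3*, and 3.63 in *skn7*∆ and 6.08 in WT for *CWP1*. Both interactions thus also held a higher unstressed level in *skn7*∆, beside the lower level under NaCl. Of 46 genes for glucan and chitin 5 were lower (10.9%, against 8.18% of all genes), among them the glucan synthase subunit *GSC2* (−0.99) and the chitin transglycosylase *CRH1* (−1.19). A further 4 were higher (8.7%, against 4.3% of all genes).

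Those 4 were *SCW11* (1.21), *DSE4* (1.15), *GAS3* and *SUN4*, and the first pair encode wall glucanases. *PRY3*, a wall protein, had the largest higher interaction of the mannoprotein list, with 706, 544, 851 and 1027 CPM in *skn7*∆ under NaCl and 783 to 999 CPM in unstressed *skn7*∆, against 286, 242, 262 and 216 CPM in WT under NaCl and 857 to 989 CPM in unstressed WT. Its level under NaCl was separate between the genotypes and 3.08-fold higher in *skn7*∆ (interaction 1.66 ± 0.21, adjusted p = 3.53e-08). *AMN1*, an antagonist of mitotic exit, had 68.4, 62.3, 73.1 and 86.2 CPM in *skn7*∆ under NaCl and 34.8, 25.5, 28.0 and 29.5 CPM in WT under NaCl (interaction 1.5 ± 0.13, adjusted p = 1.01e-11).

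Repression was smaller in *skn7*∆ for genes of ribosome production. Of 99 genes of RNA polymerase I and ribosome assembly 31 were higher in the interaction and none was lower, with median responses of −1.32 in *skn7*∆ and −1.79 in WT. Of 73 large subunit ribosomal protein genes 21 were higher, with medians of −1.07 in *skn7*∆ and −1.68 in WT. Without TMM scaling 13 of the assembly genes and 14 of the ribosomal protein genes were called. In level under NaCl, 15 of the assembly genes were higher in *skn7*∆ than in WT and none was lower, and no large subunit gene was called in either direction. The *yap1*∆ salt interaction was higher for 64 of the 73 large subunit genes, with a median of 0.75 against 0.55 in *skn7*∆. *NSR1*, a nucleolar protein of pre-rRNA processing, had 400, 500, 501 and 436 CPM in *skn7*∆ under NaCl, against 304, 273, 288 and 243 CPM in WT under NaCl (interaction 1.07 ± 0.15, adjusted p = 5.14e-07). *DBP2*, an RNA helicase, had an interaction of 1.20 (adjusted p = 1.51e-06), and *RPL3*, a ribosomal protein gene with a single copy, one of 0.73, which was not called without replicate 4 (0.63, adjusted p = 0.01).

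Single genes outside the lists had larger differences in repression. *INA1* (YLR413W) had 321, 233, 436 and 501 CPM in *skn7*∆ under NaCl and 796 to 883 CPM in unstressed *skn7*∆, against 83.5, 70.3, 108 and 60.3 CPM in WT under NaCl and 764 to 952 CPM in unstressed WT (interaction 2.18 ± 0.23, adjusted p = 5.97e-10). *AAH1*, adenine deaminase of purine salvage, had 34.9, 39.4, 44.4 and 33.3 CPM in *skn7*∆ under NaCl and 14.6, 12.1, 15.8 and 10.8 CPM in WT under NaCl (interaction 1.92 ± 0.15, adjusted p = 5.78e-13). Both fell in both genotypes, by −1.19 in *skn7*∆ and −3.37 in WT for *INA1*, and by −2.69 in *skn7*∆ and −4.61 in WT for *AAH1*. The copper transporter gene *CTR1* (1.32) lost its call without replicate 4 (adjusted p = 0.0251).

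**Figure D4:**
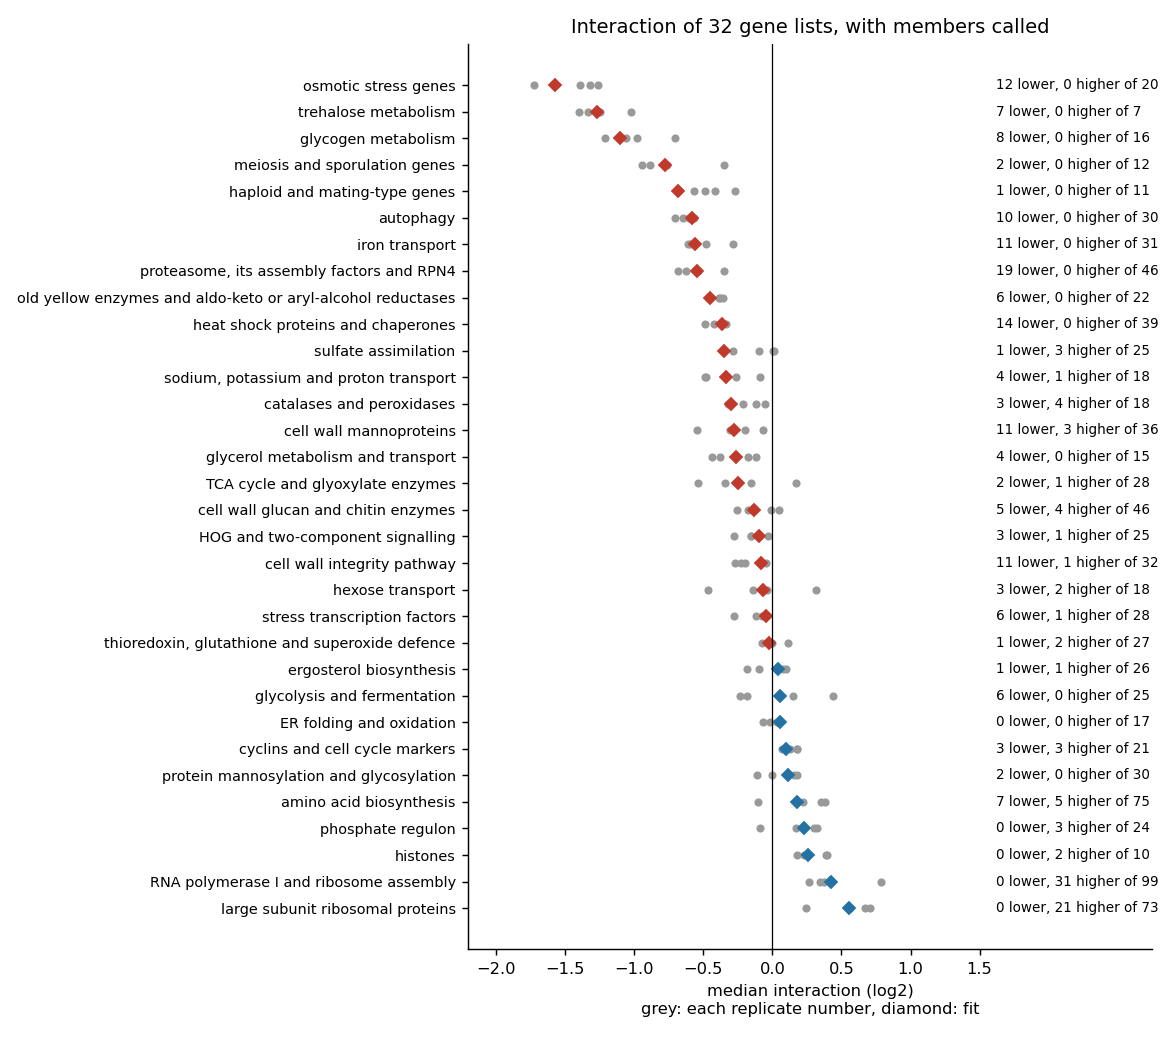
Median interaction (log2, horizontal axis) of 32 gene lists, as the fitted value (diamond, red below 0 and blue above) and the value of each replicate number (grey points), with the number of members called at the right. The trehalose list has 7 of 7 members lower, the osmotic stress list 12 of 20 lower, and the large subunit ribosomal protein list 21 of 73 higher.

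Iron transport genes were often high in unstressed *skn7*∆ and low in the interaction. Of 31 genes of iron transport 11 were lower in the interaction (35.5%, against 8.18% of all genes). Without stress 10 of the 31 were higher in *skn7*∆, against 2.71% of all genes. *FRE3*, a ferric reductase for siderophores, had 23.6, 21.8, 27.9 and 26.0 CPM in *skn7*∆ under NaCl and 232, 198, 178 and 185 CPM in unstressed *skn7*∆, against 34.6, 36.0, 43.2 and 54.5 CPM in WT under NaCl and 114, 75.6, 116 and 88.7 CPM in unstressed WT. It was higher in unstressed *skn7*∆ and lower in *skn7*∆ under NaCl, without overlap in either treatment (responses of −3.00 in *skn7*∆ and −1.23 in WT, interaction −1.77 ± 0.19, adjusted p = 2.06e-09). *FIT2*, a wall protein that holds iron siderophores (−1.43), *ENB1*, the enterobactin transporter (−1.20), and *TIS11*, which degrades mRNAs in iron shortage (−1.65), were further members with lower interactions.

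Among genes with no WT call, *RSB1*, a sphingoid long-chain base transporter gene, was induced in *skn7*∆ and had 197, 144, 222 and 248 CPM in *skn7*∆ under NaCl against 107, 111, 136 and 103 CPM in WT under NaCl (interaction 1.70, adjusted p = 3.36e-08). Its response was 2.10 in *skn7*∆ and 0.40 in WT, so that part of its interaction was a lower unstressed level in *skn7*∆. *NRG1*, a repressor of glucose-repressed genes, was repressed in *skn7*∆ (−1.62) and near its unstressed level in WT (0.17). *TIP1*, a wall mannoprotein, was higher in unstressed *skn7*∆ by 2.29 and fell with salt in *skn7*∆ (−2.01), with a response of 0.40 in WT. *ARG8*, an arginine biosynthesis enzyme, was 1 of the 3 genes with amplified induction (2.61 in *skn7*∆ and 1.88 in WT), beside *PRX1* and *TRX2*. *PRX1* was not called without replicate 1, 2 or 3, as given above, and *TRX2* without replicate 3 (adjusted p = 0.196) or replicate 4 (0.0323).

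The deletion was also set against another stress and against other deletions in the same fit. The *skn7*∆ ethanol interaction (5% ethanol, 30 min) called 143 genes lower (2.49%) and 68 higher (1.18%), and it shares the unstressed libraries with the salt interaction. Tested directly, 416 genes were lower under salt than under ethanol (7.24%) and 203 higher (3.53%). Without TMM scaling these counts were 771 and 81, and without replicate 4 they were 237 and 123. *STL1* had an interaction of −5.39 under salt and −0.59 under ethanol, and *SLT2* one of −1.56 under salt and −0.04 under ethanol. *CTT1* was lower in both stresses, at −2.42 under salt and −1.52 under ethanol, with a difference of −0.90 (adjusted p = 2.4e-03). *AHP1* had interactions of 2.12 under salt and 2.26 under ethanol, and both values use the same unstressed libraries.

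Salt responses of *skn7*∆ were compared directly with those of YPS606 *msn2*∆ *msn4*∆ and *yap1*∆, a comparison that uses no WT library, and each interaction with WT is given beside it, since these share the 8 WT libraries. The *msn2*∆ *msn4*∆ interaction called 199 genes lower (3.46%) and 81 higher (1.41%), and that of *yap1*∆ 200 lower (3.48%) and 336 higher (5.85%). The response in *skn7*∆ was lower than in *msn2*∆ *msn4*∆ for 441 genes (7.67%) and higher for 484 (8.42%), and lower than in *yap1*∆ for 334 (5.81%) and higher for 234 (4.07%). Without TMM scaling the counts against *yap1*∆ were 139 lower and 451 higher, and without replicate 1 the lower count was 210. The balance against *msn2*∆ *msn4*∆ also turned without TMM scaling, to more genes lower than higher. *STL1* responded less in *skn7*∆ than in *msn2*∆ *msn4*∆ by −6.63, with interactions of −5.39 in *skn7*∆ and 1.24 in *msn2*∆ *msn4*∆. The osmotic list as a whole was low in both, with median interactions of −1.58 in *skn7*∆ and −1.52 in *msn2*∆ *msn4*∆. Of its 20 genes 12 were lower against WT in *skn7*∆, and 10 lower and 1 higher in *msn2*∆ *msn4*∆. Compared directly, 4 of them responded less in *skn7*∆ than in *msn2*∆ *msn4*∆ and 2 more. *HXK1* responded more in *skn7*∆ by 5.20 (adjusted p = 6.5e-16), with interactions of −1.90 in *skn7*∆ and −7.10 in *msn2*∆ *msn4*∆, and *TSL1* did so by 2.14. Of the 16 glycogen genes 7 responded more in *skn7*∆ than in *msn2*∆ *msn4*∆ and none less, against 8.42% and 7.67% of all genes.

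For *CTT1* the interactions were −2.42 in *skn7*∆, −2.42 in *msn2*∆ *msn4*∆ and −1.84 in *yap1*∆, and its response in *skn7*∆ differed from that in *msn2*∆ *msn4*∆ by −0.01 and from that in *yap1*∆ by −0.59 (adjusted p = 0.15). *AHP1* had an interaction of 2.12 in *skn7*∆ and 2.62 in *yap1*∆, and *GPX2* one of 1.32 in *skn7*∆ and 1.99 in *yap1*∆. The proteasome list had 19 members lower in *skn7*∆ and 24 lower in *yap1*∆ against WT, and none whose response differed by call between *skn7*∆ and *yap1*∆. *KDX1* had interactions of −3.41 in *skn7*∆, 0.63 in *msn2*∆ *msn4*∆ and −0.02 in *yap1*∆, and differed directly from both, by −4.04 and −3.39.

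**Figure D5:**
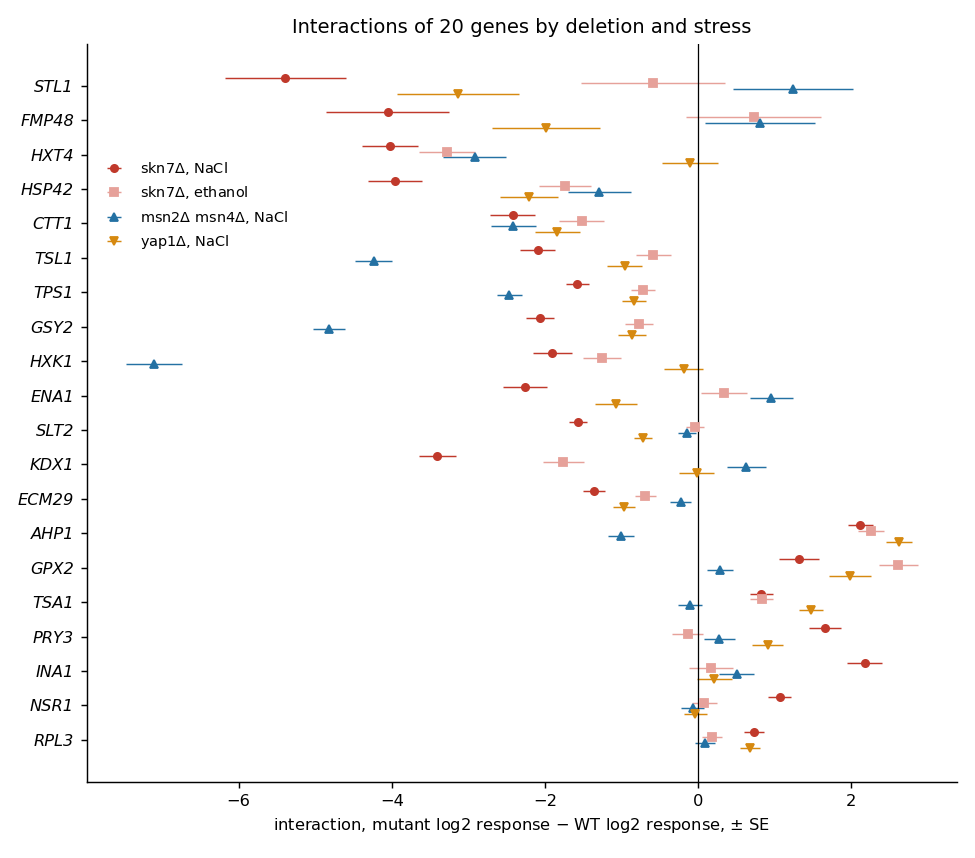
Interaction (mutant log2 response minus WT log2 response, ± SE) of 20 genes in *skn7*∆ under NaCl, *skn7*∆ under ethanol, *msn2*∆ *msn4*∆ under NaCl and *yap1*∆ under NaCl, from 4 libraries a group. *STL1*, *ENA1*, *SLT2* and *KDX1* are lowest in *skn7*∆ under NaCl, *TSL1*, *GSY2* and *HXK1* are lowest in *msn2*∆ *msn4*∆, and *AHP1*, *GPX2* and *TSA1* are above 0 in *skn7*∆ under both stresses and in *yap1*∆.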

How the data were processed

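PolyA RNA was sequenced from 48 libraries of the deletion experiment, in biological quadruplicate, of which 16 are described here. The authors trimmed reads with Trimmomatic, mapped them with STAR 2.6.1 to a YPS606 reference, the S288c genome (R64, sacCer3) altered at variants called from Bowtie2 2.3.4.1 alignments, and counted with RSEM 1.3.1 (versions per the submitters' processing notes). What the authors deposited are expected counts, estimates for each gene that divide reads among similar genes, so paralogs such as *ENA1* and *ENA5*, *HXT6* and *HXT7*, ribosomal protein pairs and histones are uncertain. They were rounded to whole numbers.

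Of 6685 genes, 28 had no count in any library and 5748 passed a mean of 1 CPM in at least 1 group. The edgeR 4.0.16 quasi-likelihood test (R 4.3.3, edgeR 3 method, TMM) was fitted to all 48 libraries with 12 groups and the replicate number as block, with Benjamini-Hochberg adjustment over all genes, and calls needed FDR 0.01 and 1.5-fold. The replicate number marks a block of library construction and a lane. Deviations of same-numbered samples of different genotypes correlated by 0.0778 on average (16 pairs), those of the 8 pairs from the same culture by 0.087 and those of other numbers by −0.027. On simulated counts for the interaction, with 5703 genes and 200 changed, 94% of 2-fold and 100% of 4-fold changes were recovered, with 3 false calls. The changed genes were drawn without those of low mean level, and no replicate effect was simulated, so recovery at low counts was not measured.

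Alternatives were total counts without TMM, DESeq2 1.42.0, other thresholds and filters, other blocks and each replicate left out. Leaving out each of the 16 libraries was added after seeing the data. The members and lists were chosen with earlier results of these data known, so no list was tested. *SKN7* was left out of the lists, a gene with several names was counted once, and a further list is not reported here. Named were *SKN7*, up to 10 genes per class by size of interaction (same sign in all 4 replicates, at least 50 mean counts), up to 4 per list, the peroxidase, glycerol, trehalose and glycogen lists, and up to 5 per direction for direct differences. Other genes are named to complete a list's calls or are said to be chosen afterwards. Of the gene IDs 6006 matched RefSeq R64. Labels name replicates as biological samples, and p-values measure the spread between them.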

Additional observations from a re-analysis of the deposited data

Results flagged for a closer look

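Of 219 quantities with 4 replicate-wise values, 13 had 1 replicate far from the other 3, and chance alone flags about 1 in 20. Replicate 4 gave the larger interaction in 5 of them. For *CTT1* it was −3.38 against −2.14 to −1.97 in the others, for *HXT5* −3.6 against −2.64 to −2.47, for *RTN2* −3.63 against −2.32 to −2.2, for *GDB1* −2.6 against −1.97 to −1.88, and for *URE2* −0.603 against −0.152 to −0.0957.

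Replicate 2 differed for 4. *TAT1* had an interaction of 0.0248 against 0.916 to 1, *GPD2* 0.195 against 0.52 to 0.559 and *RGC1* −0.438 against −0.176 to −0.15. The median response in *skn7*∆ of genes repressed in the strain experiment was −0.783 in replicate 2 and −0.931 to −0.917 in the others.

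Replicate 1 differed for the remaining 4. *PIR3* had an interaction of −3.03 against −3.9 to −3.76 in the others, *UMP1* −0.331 against −0.971 to −0.938, *VTC2* 0.444 against 0.826 to 0.904, and *PCL1* −0.943 against −1.45 to −1.37.

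Tests of a difference between effects called genes in each such comparison. The salt response of *skn7*∆ was lower than that of WT for 470 genes and higher for 247. The salt interaction was lower than the ethanol interaction for 416 genes and higher for 203. Against *msn2*∆ *msn4*∆ the salt response of *skn7*∆ was lower for 441 genes and higher for 484, and against *yap1*∆ it was lower for 334 and higher for 234.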

How the results depend on the processing

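No called interaction of a gene named by rule changed sign under the alternatives run. But the balance of calls turned without TMM for the salt response of *skn7*∆ (1409 induced and 1096 repressed). It also turned for the differences of that response from *msn2*∆ *msn4*∆ and from *yap1*∆. Median interactions near 0 changed sign between settings for thioredoxin and glutathione genes, folding in the endoplasmic reticulum, glycolysis (−0.0531 to 0.167), ergosterol biosynthesis (−0.0222 to 0.0837) and stress transcription factors (−0.107 to 0.0444). Without TMM, on total counts, 143 genes had a higher interaction, the salt interaction was below that in ethanol for 771 genes and above it for 81, the response was higher than in *msn2*∆ *msn4*∆ for 245 and lower and higher than in *yap1*∆ for 139 and 451, defective repression held 115 genes and repression gained 21, and the medians of old yellow enzymes and reductases and of endoplasmic reticulum folding were −0.509 and −0.00189. At FDR 0.05 amplified repression held 30 genes, induction gained 17 and repression gained 58. With no fold limit 482 genes had a higher interaction, salt induced 1709 in *skn7*∆, 937 were lower and 767 higher under NaCl, 133 lower and 265 higher unstressed, 338 higher under salt than ethanol, 774 higher than in *msn2*∆ *msn4*∆ and 365 higher than in *yap1*∆. That setting gave 428 genes of defective repression, 5 of amplified induction, 18 of amplified repression and 43 of induction gained. With only the groups compared, amplified repression held 28 genes and the reductase median was −0.392. Without replicate 2 of *skn7*∆ under NaCl, amplified repression held 17 genes and repression gained 64. With no replicate block, 450 genes were lower and 233 higher in the interaction. A culture block gave no differences in level, since cultures are nested in genotype.

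Leaving out each replicate number in turn gave 139 to 344 genes with a higher interaction, 237 to 435 lower and 123 to 291 higher under salt than ethanol, and 210 to 268 lower than in *yap1*∆, and leaving out single libraries gave up to 469 lower under salt than ethanol and up to 339 lower than in *yap1*∆. The classes ranged from 119 to 305 for defective repression, 1 to 3 for amplified induction, 6 to 19 for amplified repression, 6 to 15 for induction gained and 16 to 55 for repression gained. Median interactions ranged from −1.67 to −1.24 for osmotic stress genes, −0.0647 to 0.0678 for thioredoxin and glutathione genes, −0.505 to −0.378 for the reductases, −0.44 to −0.334 for chaperones, −0.0254 to 0.0667 for endoplasmic reticulum folding, −0.291 to −0.146 for sulfate assimilation, −0.652 to −0.576 for autophagy, 0.141 to 0.196 for cyclins and −0.74 to −0.442 for haploid genes. The causes were not tested. Of 153 called genes among those named by rule, 104 were called under every setting, 49 were lost without 1 of the 4 replicates and 25 without 1 of the 16 libraries. Low counts limited *DDR2*, *GAL2*, *BAG7* and *PAI3*, whose unstressed levels were at or near the floor, and *STR3*, whose unstressed level was there in WT only.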

Other observations

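Further gene groups held members called in the interaction. Of 75 amino acid biosynthesis genes 7 were lower (9.33%, against 8.18% of all genes) and 5 higher (6.67%, against 4.3%), and 15 were higher in unstressed *skn7*∆. *STR3*, cystathionine beta-lyase, had 24, 35, 25 and 30 counts in unstressed *skn7*∆ and 2, 2, 1 and 2 counts in unstressed WT, against which no exact fold is given. Under NaCl its mean was 34 CPM in *skn7*∆ and 15.8 CPM in WT, so that its lower interaction lay in the unstressed levels. *ARO9*, an aromatic aminotransferase, had an interaction of −1.53. Of 22 old yellow enzymes and aldo-keto or aryl-alcohol reductases 6 were lower in the interaction (27.3%, against 8.18% of all genes). Without stress 7 of the 22 were higher in *skn7*∆, against 2.71% of all genes.

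Of 21 cyclins and cell cycle markers 3 were lower (*CLN2*, *PCL1* and *FAR1*) and 3 higher (*CLB1*, *CLB2* and *PCL9*). These were 14.3% in each direction, against 8.18% lower and 4.3% higher of all genes. Of 10 histone genes, which have near-identical copies, 2 were higher, *HHT1* (1.00) and *HTA1* (0.92). Of 24 phosphate regulon genes 3 were higher (12.5%, against 4.3% of all genes) and none was lower. Of 17 genes of folding and oxidation in the endoplasmic reticulum none was called.

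Compared directly, 64 of 99 ribosome assembly genes responded higher in *skn7*∆ than in *msn2*∆ *msn4*∆ and 63 than in *yap1*∆. Of the 73 large subunit genes 27 did so against *msn2*∆ *msn4*∆ and none against *yap1*∆. Over all genes 8.42% responded higher than in *msn2*∆ *msn4*∆ and 4.07% higher than in *yap1*∆. Without TMM scaling the balance of both comparisons turned, and the list counts given here were not repeated under that setting. Of the 31 iron transport genes 15 responded lower in *skn7*∆ than in *msn2*∆ *msn4*∆ (7.67% of all genes did). Against *yap1*∆ 11 responded lower and 1 higher, where 5.81% and 4.07% of all genes did.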
